A study of Homo sapiens with 38 samples.

Results

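The subtelomeres are the stretches of chromosome next to the telomeres, and here they were taken as the first and last 2 Mb of each of the 22 autosomes in hg19, the human genome build of the peak lists. A peak belonged to them if its midpoint lay in such a window, whatever its height. Of the 44 autosome ends, 39 were used. The short arms of 13, 14, 15, 21 and 22 were skipped because their outer 2 Mb is unknown sequence in this build. The windows hold 34046 of the 545400 autosomal peaks in 16 peak lists, namely 13515 MACS2 and 5999 SEACR peaks of H3K27ac, and 6414 MACS2 and 8118 SEACR peaks of H3K27me3.

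The peaks come from CUT&Tag, in which an antibody guides a transposase to a histone mark and the tagged DNA next to it is sequenced. The cells were K562, an established leukemia line with erythroid features. H3K27ac was profiled with 3 antibodies in 2 replicates each (Abcam-ab177178 at 1:100, Abcam-ab4729 at 1:100 and Diagenode C15410196 at 1:50) and H3K27me3 with 1 antibody in 2 replicates (CST-9733 at 1:100). All 8 libraries were made with 15 PCR cycles and SDS extraction, and without the deacetylase inhibitor TSA. The study calls the 2 replicates biological, without saying that they were separate cultures, so p-values measure the spread between these libraries of 1 cell line.

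H3K27ac marks active promoters and enhancers. H3K27me3 is laid down by Polycomb repressive complex 2 over silent genes, often in broad domains, and the same lysine cannot carry both modifications. Human subtelomeres are rich in genes and in GC, and carry recently duplicated gene families near the tip. The telomere itself is an array of TTAGGG repeats without genes, only a remnant of which is written out in the reference. K562 is known for active alpha globin genes, which lie near the tip of 16p.

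The 5 highest-ranked H3K27ac regions of the subtelomeres lay largely on sequence that is repeated elsewhere in the genome, and all 5 had H3K27me3 peaks too. One of them, on 1p, is shown by 150 bases from its middle on the plus strand of GRCh37 (chr1:567311-567460), because it holds no telomere repeat array. Intact telomere hexamers (TTAGGG or its complement CCCTAA) would be in capitals, and these bases hold none.
1p region: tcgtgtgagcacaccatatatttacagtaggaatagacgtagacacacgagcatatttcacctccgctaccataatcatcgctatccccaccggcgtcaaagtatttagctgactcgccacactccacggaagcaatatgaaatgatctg

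The genes of these windows are shown by the promoter of PIEZO1 on 16q, a mechanically gated channel of red cells, which carried H3K27ac and lies in one of the widest acetylated regions. The 200 bases upstream of its annotated start (chr16:88851629-88851828, GRCh37) are read along the gene, on the minus strand, with CpG dinucleotides in capitals.
PIEZO1: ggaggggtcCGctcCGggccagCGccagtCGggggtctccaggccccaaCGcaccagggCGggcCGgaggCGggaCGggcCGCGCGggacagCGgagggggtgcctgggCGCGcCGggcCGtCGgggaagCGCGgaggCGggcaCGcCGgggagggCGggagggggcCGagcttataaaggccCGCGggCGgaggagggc
These bases hold 28 CpG.

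The first comparison asked whether the 2 marks were denser near chromosome ends than in the chromosome interiors, which are all other known bases of the autosomes. Both were. The terminal windows hold 75.17 Mb of known sequence. In them MACS2 listed 19.5 to 43.3 H3K27ac peaks per Mb over the 6 libraries (median 26.2), and 7.32 to 11.8 in the interiors. Every library was higher at the ends, and the 2 ranges did not overlap. The log2 ratio was 1.602 ± 0.225 (SD, n = 6), a 3.04-fold difference, above 0 in 6 of 6 libraries (exact two-sided sign-flip permutation test, p = 0.0312, the smallest that 6 libraries allow). SEACR gave 1.49 ± 0.17, or 2.81-fold, in 6 of 6 libraries (p = 0.0312, same exact test).

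The share of bases inside peaks told the same for H3K27ac. MACS2 peaks covered 2.13 to 5.30% of the known terminal bases (median 3.42%) and 0.697 to 1.34% of the interiors. The log2 ratio of coverage was 1.64 ± 0.26 by MACS2 and 1.73 ± 0.28 by SEACR (n = 6, above 0 in 6 of 6 libraries, exact sign-flip p = 0.0312 each). The ab177178 libraries stood highest, at 1.98 and 1.94 by MACS2, ab4729 followed at 1.61 and 1.51, and Diagenode at 1.38 and 1.42. The antibodies were not tested against each other.

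H3K27me3 was also denser at the ends, and its peaks were wider there. Its 2 libraries had 44.9 and 40.4 MACS2 peaks per Mb in the terminal windows and 27.4 and 23.2 in the interiors, log2 ratios of 0.71 and 0.80. Peaks covered 21.1 and 19.8% of terminal bases against 7.53 and 6.71% of the interiors, log2 ratios of 1.49 and 1.56, and SEACR gave 1.55 and 1.46. The median H3K27me3 peak was 1666 bp wide at the ends and 1162 bp in the interiors (MACS2, mean of the 2 libraries). A sign-flip test over 2 libraries cannot pass 0.05, so these are given as values with no test.

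Against the whole interiors, the terminal excess in coverage was 3.12-fold for H3K27ac and 2.88-fold for H3K27me3 by MACS2. The difference between marks was 0.12 on the log2 scale by MACS2 (exact permutation test over 28 arrangements of the 8 libraries, p = 0.75) and 0.22 by SEACR (p = 0.321, same exact permutation). In peaks per Mb the excess was greater for H3K27ac than for H3K27me3, by 0.85 (MACS2) and 0.64 (SEACR) on the log2 scale, each with an exact permutation p of 0.0357, the smallest that 28 arrangements allow. These balances depended on the peaks and interiors used. With MACS2 peaks of q at most 1e-10 both turned, with a density ratio of 1.55 for H3K27ac and 3.03 for H3K27me3, and a difference in coverage ratio of -1.46 on the log2 scale (exact permutation p = 0.0357). Against interiors within 10 Mb of the end only, the H3K27me3 coverage ratio was 0.46 by either caller, and H3K27ac exceeded it by 0.70 (MACS2) and 0.75 (SEACR, exact permutation p = 0.0357 each). The 2 marks were called with different peak models and thresholds, so their absolute levels are not compared here.

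**Figure D1:**
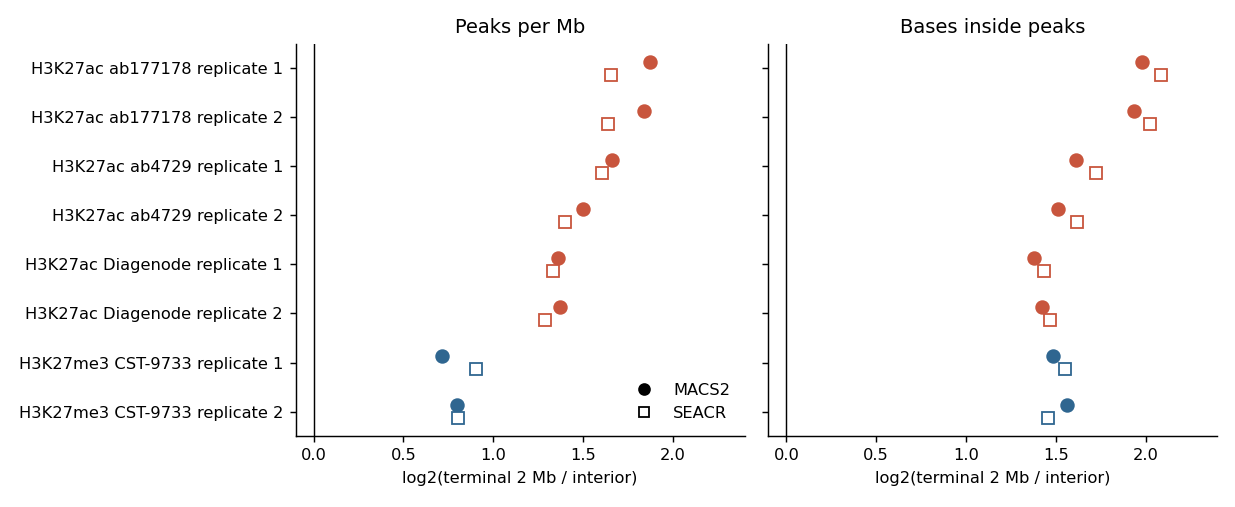
Log2 ratio of the terminal 2 Mb to the interiors in each of the 8 libraries, for peaks per Mb (left) and for bases inside peaks (right). Filled circles are MACS2 and open squares SEACR, red is H3K27ac and blue H3K27me3. Every point lies right of 0, and in peaks per Mb the H3K27me3 points, at 0.71 to 0.90, lie left of all H3K27ac points, at 1.29 to 1.88.

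The excess went with base composition. The median terminal window was 49.5% GC and held 26 starts of protein-coding genes, against 40.1% and 9 for the 1299 interior windows of 2 Mb. Against interior windows with a like number of starts, H3K27ac coverage at the ends stayed 1.57-fold higher by MACS2 and 1.62-fold by SEACR (log2 0.65 ± 0.19 and 0.70 ± 0.20, 6 of 6 libraries, exact sign-flip p = 0.0312 each), and H3K27me3 1.75- and 1.74-fold. Against interior windows of like GC, the H3K27ac difference was 0.03 ± 0.08 on the log2 scale by either caller (above 0 in 2 of 6 libraries by MACS2, exact p = 0.5, and in 3 of 6 by SEACR, exact p = 0.438). H3K27me3 was 0.11 and 0.12 higher. The call of a terminal excess was thus lost among windows of like GC, a comparison added after the data were seen. GC, gene number and position cannot be told apart beyond that, since 19 of the 39 terminal windows are over 50% GC and 32 of the 1299 interior windows are.

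Within the GC classes the H3K27ac difference did not go one way. The 5 arms of at most 42% GC had 1.14% of their bases in H3K27ac MACS2 peaks against 0.585% in interior windows of that class, higher in 6 of 6 libraries. The 9 arms between 42 and 46% had 1.44% against 1.52%, and the 6 between 46 and 50% had 2.10% against 3.17%, both lower in 6 of 6. The 19 arms over 50% had 5.91% against 5.46%, higher in 6 of 6. These class values are a description.

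**Figure D2:**
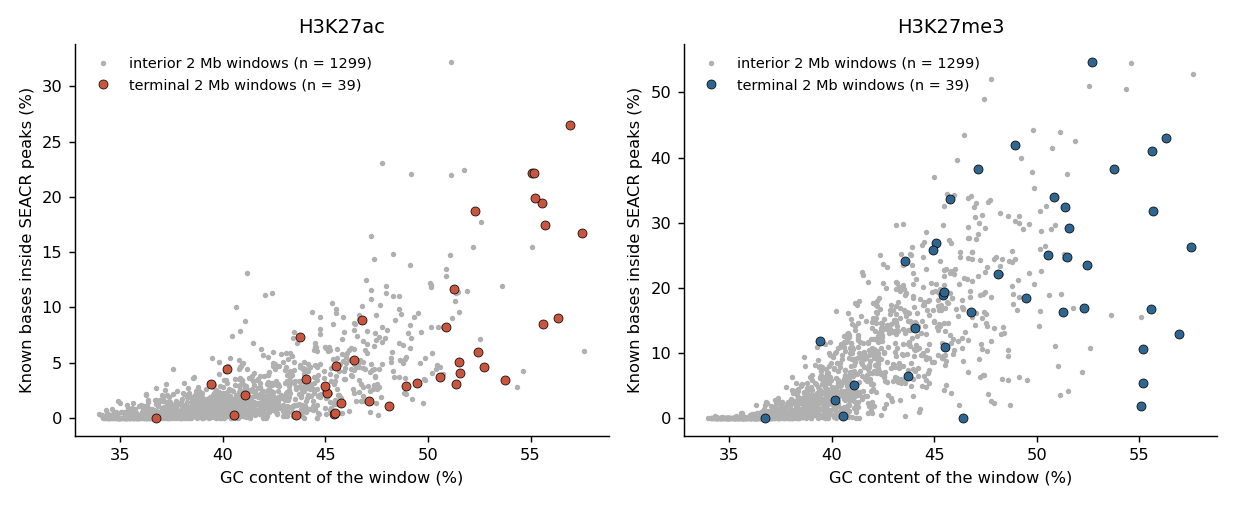
GC content of each 2 Mb window (x axis, %) against the mean share of its known bases inside SEACR peaks (y axis, %), for H3K27ac over 6 libraries (left) and H3K27me3 over 2 (right). Grey dots are the 1299 interior windows and outlined circles the 39 terminal ones, which lie to the right, with a median GC of 49.5% against 40.1%, and mostly inside the grey cloud.

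The marks also followed distance from the end in different ways. H3K27ac was highest in the outermost 100 kb, at 6.09 ± 1.11% of known bases (SD, n = 6, MACS2), stayed between 2.92 and 4.24% from there to 2 Mb, and fell to 1.73% between 3 and 4 Mb and 1.29% between 5 and 6 Mb. Many arms begin with unknown bases, so the outermost 100 kb holds only 2.44 Mb of known sequence over all arms. It also holds peaks on telomere repeat sequence, described below. H3K27me3 was lowest at the tip, 9.41% in the outermost 100 kb, rose to 23.7% between 750 and 1000 kb, was still at 21.9% between 3 and 4 Mb, and was at 11.2% between 5 and 6 Mb. The H3K27me3 belt was thus wider than the 2 Mb window. The balance of marks depended on the window, since the log2 coverage ratio of H3K27ac exceeded that of H3K27me3 by 0.43 with windows of 1 Mb and lay 0.42 below it with windows of 5 Mb (MACS2, exact permutation p = 0.0357 each).

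**Figure D3:**
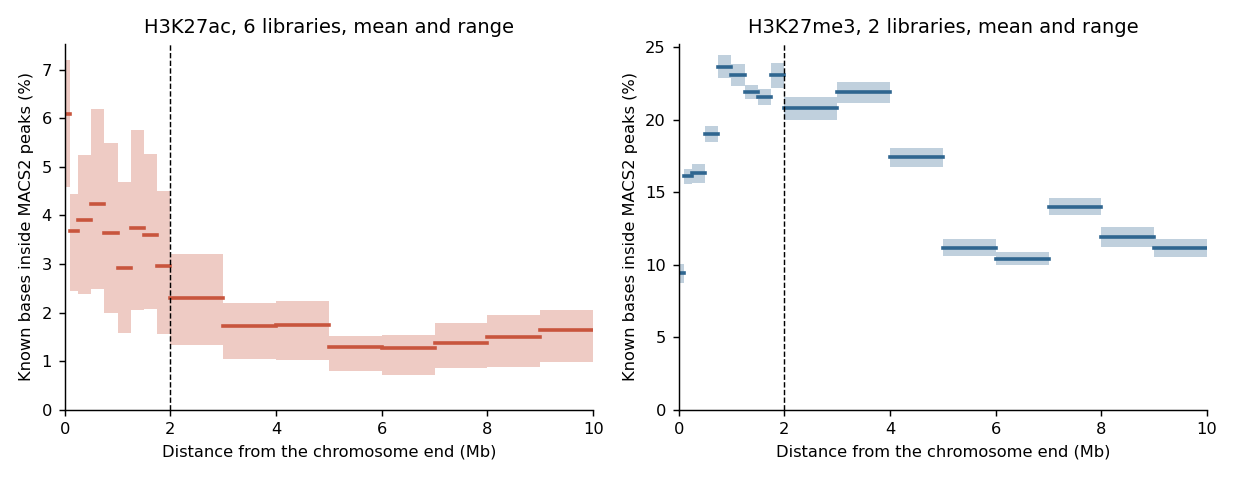
Share of known bases inside MACS2 peaks (y axis, %) against distance from the chromosome end (x axis, Mb), over the 39 arms. Lines are means over libraries (6 for H3K27ac, left, and 2 for H3K27me3, right), shaded boxes run from the lowest to the highest library, and the dashed line marks 2 Mb. H3K27ac is highest in the outermost 100 kb (6.09%), where H3K27me3 is lowest (9.41%) and 2.44 Mb of sequence is known.

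At the very tip, peaks followed the telomere repeat. In the outermost 1 kb of known sequence, 14 of the 39 arms hold at least 20 telomere hexamers. MACS2 called H3K27ac there in all 6 libraries at 9 of these 14 tips and H3K27me3 in both libraries at 7. At the 25 other tips no mark was called in every library, and H3K27ac in at least 1 library at 5. The tip of 1q, with 108 hexamers in its last 1 kb, had a fold over background of 242 and 236 with ab177178, 425 and 208 with ab4729, 159 and 149 with Diagenode, and 19.3 and 13.5 with H3K27me3. All 8 libraries thus had a peak there, and each of these MACS2 peaks ranked above the 99th percentile of its list. The SEACR peaks at this tip ranked lower, from the 81.7th (CST-9733 replicate 2) to the 99.8th percentile (ab4729 replicate 1) by total signal. The repeat did not always go with a peak: the tip of 19q holds 22 hexamers and had no MACS2 peak in any library, and that of 4p, with 27, had none.

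The 5 highest-ranked H3K27ac regions of the subtelomeres, by mean percentile of their fold over the 6 libraries, all lacked a protein-coding promoter. The first was chr5:10003-11872, with a fold of 1210 and 1175 (ab177178), 2252 and 936 (ab4729), 845 and 867 (Diagenode), and 118 and 119 in the H3K27me3 libraries. Median folds over all autosomal peaks were 10.7 to 13.4 for H3K27ac and 3.13 and 3.67 for H3K27me3. This region was the highest in both marks, and the median of its 31-base words occurs 646 times in the reference. The second, chr12:133841511-133841903, had 398 to 900 in H3K27ac and 55.0 and 60.2 in H3K27me3, and holds 61 telomere hexamers. The last 2, chr12:95140-95756 and chr4:191043604-191044274, hold 76 and 70 hexamers and reached 165 to 425 and 160 to 428 in H3K27ac.

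The third region, chr1:564467-570304, was of another kind. It holds 5 hexamers over 5838 bp, but 63.3% of its 31-base words also occur in the mitochondrial genome of the reference. Its fold was 252 and 250 with ab177178, 220 and 195 with ab4729, 941 and 1119 with Diagenode, and 22.2 and 20.5 with H3K27me3. It was the highest of the 5 regions in the Diagenode libraries only, where it passed the 5p region. The study states a larger share of mitochondrial fragments for the Diagenode libraries than for the other libraries used here. Whether that goes with the higher fold was not tested. How reads from repeated sequence were placed, and whether these peaks reflect the marks at the loci named, was not tested. Leaving out the last 100 kb of every chromosome changed the H3K27ac coverage ratio little, to 1.603 (MACS2) and 1.699 (SEACR), still in 6 of 6 libraries.

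**Figure D4:**
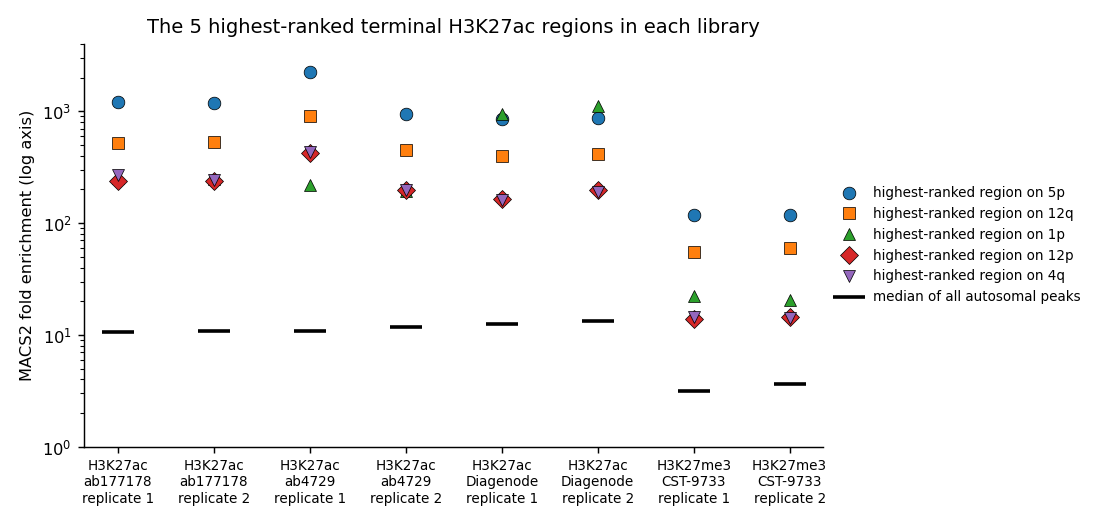
MACS2 fold enrichment (y axis, log scale) of the 5 highest-ranked terminal H3K27ac regions in each of the 8 libraries (x axis). Black bars are the median fold of all autosomal peaks of that library (3.13 to 13.4), and every region lies above it in all 8 libraries, H3K27me3 included. H3K27ac folds come from narrow and H3K27me3 folds from broad peak models, so heights are not compared between the marks.

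The short sequences under the peaks also differed. In the 300 bases around the middle of each MACS2 peak, the telomere repeat of 2 hexamers in a row (TTAGGG on either strand) was found in 1.08 ± 0.27% of terminal and 0.0166 ± 0.0056% of interior H3K27ac peaks (6 of 6 libraries higher at the ends, exact sign-flip p = 0.0312), and in 0.543 and 0.0104% of H3K27me3 peaks. Telomere arrays lie at chromosome ends, so this direction was set by where the windows lie, and nothing is concluded from this p. The share of the repeat over all terminal and interior sequence was not counted. The GATA motif AGATAA was in 7.42 ± 0.80% of terminal and 13.5 ± 1.0% of interior H3K27ac peaks, and the AP-1 motif TGACTCA in 4.98 ± 0.66% and 6.94 ± 0.28% (both lower in 6 of 6, exact p = 0.0312). The GC box GGGCGG went the other way, with 38.97 ± 3.71% against 29.45 ± 2.68% (6 of 6, exact p = 0.0312). GC content under the peaks moved with it, 62.3% at the ends and 55.9% in the interiors. The same held at all protein-coding starts, whatever their marks: within 150 bases of the start, AGATAA was in 4.34% of terminal and 7.27% of interior genes, and GGGCGG in 68.0 and 53.4%. A motif match is a description of the letters only.

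The second comparison set the arms beside each other. H3K27ac coverage was above that of the interiors in every library in 29 of 39 arms by MACS2, against 27.8% of all 1338 windows of 2 Mb, and in 28 of 39 by SEACR, against 26.8%. H3K27me3 was above in both libraries in 31 of 39 arms by either caller, against 36.8 and 37.1% of all windows. Of the 1299 interior windows alone, 26.4 (MACS2) and 25.4% (SEACR) were above in H3K27ac, and 35.5 and 35.8% in H3K27me3. The excess was thus present on most arms but not on all. Copy number of the arms, which varies in K562, was not measured here.

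The richest arm in H3K27ac was 19p, where SEACR peaks covered 17.3 to 38.6% of the bases (mean 26.5%), followed by 8q (22.1%), 17q (22.1%) and 16q (19.9%). At the other end stood 3p, with no base in a peak of either mark in any library, then 4q (0.227%), 6p (0.269%) and 2p (0.359%). Neighbours in this order were mostly not separated: in 8 of the 38 neighbouring pairs the higher arm was higher in all 6 libraries. On 19p, MACS2 and SEACR called H3K27ac in 6 of 6 libraries at the promoters of ABCA7, a lipid transporter, ABHD17A, a depalmitoylating enzyme, and ADAT3, a tRNA deaminase subunit. On 8q they did so at ADCK5, ARHGAP39 and BOP1, a ribosome biogenesis factor, on 17q at ALYREF, an mRNA export factor, ANAPC11, a subunit of the anaphase promoting complex, and ARHGDIA, and on 16q at ANKRD11, APRT and CBFA2T3.

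The arms poorest in H3K27ac still held promoters with it. On 2p, ACP1, SH3YL1 and TMEM18 had H3K27ac in 6 of 6 libraries by both callers, and so did FRG1 on 4q. On 6p DUSP22, a phosphatase, and EXOC2, an exocyst subunit, had it in 6 libraries by MACS2 and in 5 and 3 by SEACR. These arms hold few genes, with 8 coding starts on 2p, 7 on 6p and 3 on 4q. The 2 coding genes that start on 3p, CHL1 and CNTN6, both neural adhesion molecules, had neither mark.

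H3K27me3 ordered the arms differently. The highest was 5p, with 56.1 and 53.3% of its bases in SEACR peaks (mean 54.7%), above all 1299 interior windows. Then came 20q (43.1%), 7q (41.9%) and 7p (41.1%). On 5p, AHRR (a repressor of the aryl hydrocarbon receptor), CEP72 (a centrosomal protein) and IRX4 (a homeobox factor of the heart) had the mark at the promoter in both libraries by both callers, on 20q BHLHE23, BIRC7 and CHRNA4, on 7q PTPRN2, and on 7p ADAP1 and CYP2W1. 7q holds few genes, with 5 coding starts and 115 to 130 H3K27me3 MACS2 peaks, and PTPRN2, a phosphatase of neuroendocrine granules, was its only gene marked in both libraries.

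The arms lowest in H3K27me3 were 3p (0), 19q (0.0635%), 4q (0.373%) and 8q (1.82%), with 3p and 4q low in both marks. Of the 78 coding genes that start on 19q, 38 carried H3K27ac by MACS2, none carried H3K27me3 in both libraries, and 40 carried neither. By SEACR ZBTB45, a zinc finger gene, had H3K27me3 in both. On 8q, 63 of 76 carried H3K27ac alone by MACS2. Of all autosomal promoters, 49.6% carried H3K27ac alone, 19.6% H3K27me3 alone and 28.6% neither mark by MACS2. SCRT1, a neural zinc finger factor, and SLC52A2, a riboflavin transporter, were the 8q genes with H3K27me3 in both libraries by both callers. They share 1 peak, with folds of 4.79 and 4.81.

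**Figure D5:**
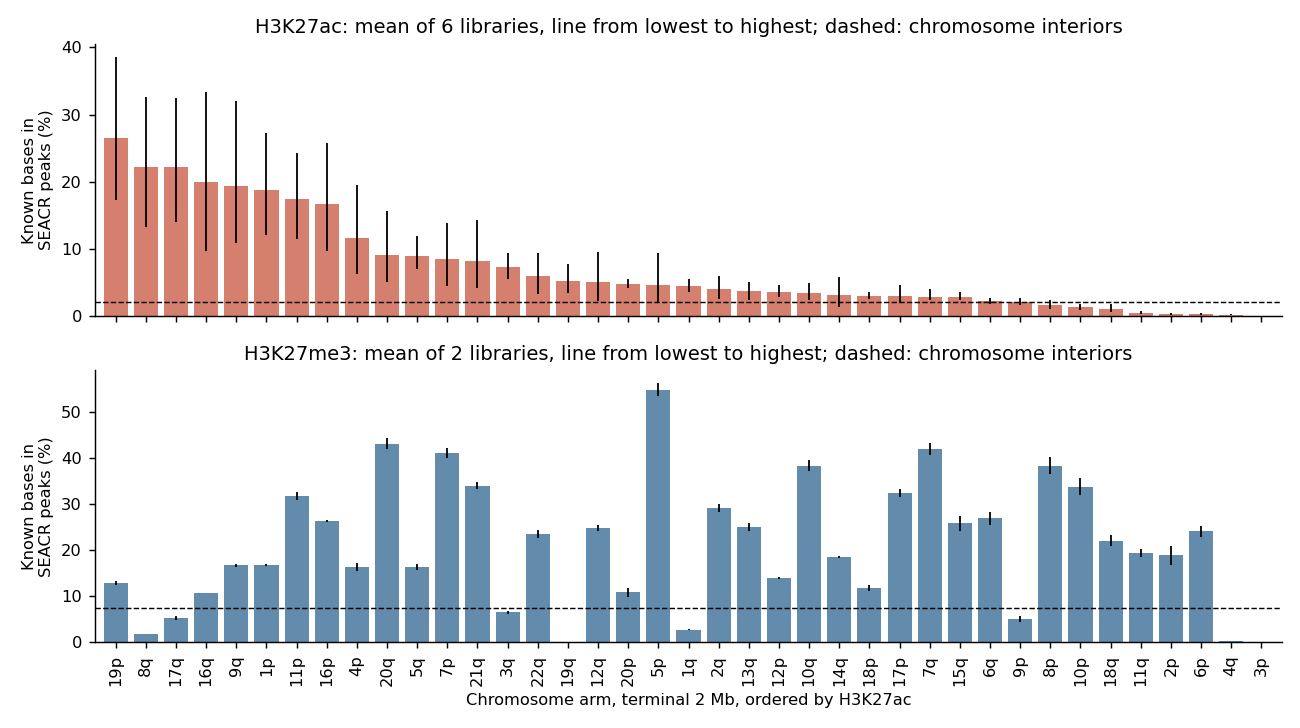
Share of known bases inside SEACR peaks (y axis, %) in the terminal 2 Mb of each of the 39 arms, ordered by H3K27ac, for H3K27ac (top, 6 libraries) and H3K27me3 (bottom, 2 libraries). Bars are means, black lines run from the lowest to the highest library, and the dashed line is the mean of the chromosome interiors. H3K27ac falls from 26.5% on 19p to 0 on 3p, while H3K27me3 peaks at 54.7% on 5p.

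Over the 39 arms, the coverage of the 2 marks was nearly unrelated (Spearman's rho -0.11, Pearson's r -0.20, MACS2, a description over arms that share libraries), whereas over the 1299 interior windows rho was 0.67. H3K27ac went with the number of coding starts on the arms (rho 0.86) as in the interiors (0.78). H3K27me3 did not on the arms (-0.12 against 0.70 in the interiors), and it went less with GC on the arms (0.40 against 0.89). The arms thus fall into several kinds: 3p and 4q had little of either mark, 8q, 17q and 19q had H3K27ac with little H3K27me3, 8p, 10p and 6p had H3K27me3 with little H3K27ac, and 11p and 20q had much of both.

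Short and long arms differed little. On the 17 autosomes with both windows, H3K27ac coverage on p arms was 0.16 ± 0.06 (MACS2) and 0.15 ± 0.06 (SEACR) lower than on q arms on the log2 scale, in 6 of 6 libraries (exact sign-flip p = 0.0312 each). With windows of 1 Mb it was 0.09 and 0.12 higher on p arms instead (exact p = 0.125 each), so the direction belongs to the 2 Mb window. By chromosome, the p arm was higher in every library on 6 and the q arm on 10 of the 17 (MACS2). On chromosome 1, for example, 8.97% of 1p and 2.50% of 1q lay in H3K27ac peaks. H3K27me3 went the other way, with coverage higher on p arms in both libraries and no test. Its log2 ratios were 0.33 and 0.36 by MACS2, and 0.34 and 0.35 by SEACR. By chromosome, its p arm was higher in both libraries on 8 and its q arm on 8 of the 17 (MACS2).

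The third comparison turned to promoters, taken as 1.5 kb upstream and downstream of each protein-coding gene's most upstream annotated start. There are 1244 such genes in the terminal windows and 17985 in the interiors. A promoter counted as H3K27ac if it met a peak in at least 2 of 6 libraries, and as H3K27me3 if it did in both. By MACS2, 732 terminal promoters (58.8%) carried H3K27ac alone, against 49.6% of all 19229 autosomal promoters. H3K27me3 alone was on 200 (16.1%, against 19.6%), both marks on 39 (3.14%, against 2.28%) and neither on 273 (21.9%, against 28.6%). By SEACR 711 carried H3K27ac alone (57.2%, against 45.8%), 214 H3K27me3 alone (17.2%, against 20.1%), 31 both (2.49%, against 1.44%) and 288 neither (23.2%, against 32.7%). Subtelomeric genes therefore carried H3K27ac more often, though the terminal windows hold more H3K27me3 sequence. By library, the share of promoters with an H3K27ac peak was 8.72 ± 2.21 percentage points higher at the ends by MACS2 and 9.64 ± 3.44 by SEACR (6 of 6, exact sign-flip p = 0.0312 each), and that with H3K27me3 was lower by 2.64 and 3.36 (MACS2) and by 2.51 and 2.25 (SEACR). With all annotated genes in place of protein-coding ones, the H3K27me3 difference turned to 5.94 (MACS2) and 6.08 (SEACR) points higher at the ends, with windows of 5 Mb to 2.63 and 2.81 points higher, and with MACS2 peaks of q at most 1e-10 to 3.08 points higher.

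H3K27ac peaks per gene were slightly more numerous at the ends, and H3K27me3 peaks per gene were fewer. The terminal windows had 1.81 ± 0.60 H3K27ac MACS2 peaks per coding start and the interiors 1.39 ± 0.28, a log2 ratio of 0.34 ± 0.23 (6 of 6 libraries, exact sign-flip p = 0.0312), and by SEACR the ratio was 0.22 ± 0.17 (6 of 6, exact p = 0.0312). H3K27me3 had 2.58 MACS2 peaks per coding start at the ends and 3.67 in the interiors, and 3.26 and 4.33 SEACR peaks. The H3K27ac SEACR ratio was 0.18 and no longer passed without the last 100 kb of each chromosome (exact p = 0.0938). H3K27ac peaks were of like width by MACS2 (log2 ratio -0.04 ± 0.05, exact p = 0.0938) and wider at the ends by SEACR (0.17 ± 0.08, 6 of 6, exact p = 0.0312).

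Of the alpha globin genes and their neighbours on 16p, all 11 carried H3K27ac by both callers and none H3K27me3. By MACS2, 49.6% of all promoters, 58.8% of terminal ones and 58 of the 84 on 16p carried H3K27ac alone. The 11 genes are neighbours, so 1 peak can meet more than 1 of their promoters. NPRL3, whose introns hold the globin enhancers, had the highest MACS2 folds of the group, 96.4 and 84.8 with ab177178, 79.3 and 90.7 with ab4729, and 82.3 and 133 with Diagenode. HBZ, the embryonic zeta globin, had 25.0, 28.7, 21.8, 32.3, 31.4 and 49.3 in the same order, and HBA2, an adult alpha globin, had 13.1, 11.4, 8.73, 10.3, 9.07 and 14.6. All 6 libraries had a peak at each of these promoters and neither H3K27me3 library had one. LUC7L, a splicing factor gene at the edge of the group, was the one member not called in every library by MACS2. HBA1 and HBA2 are near-identical copies, so reads at one may belong to the other.

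The listed housekeeping genes were mostly acetylated as well. Like the other gene lists, this one was chosen with earlier results of these data known, so its counts are a description. By MACS2, 22 of the 24 listed genes with a start in these windows carried H3K27ac alone, against 49.6% of all promoters and 58.8% of terminal ones, with FASN, GPX4, SDHA, TBP and TYMS among those called in all 6 libraries. SDHA, a subunit of succinate dehydrogenase on 5p, had folds of 63.1, 53.2, 27.6, 41.9, 49.5 and 74.2, and YES1, a kinase on 18p, of 71.4, 78.3, 39.99, 57.0, 80.9 and 99.8. The exceptions were ACTG1, with H3K27me3 at its outermost annotated start (4.39 and 4.49), and ZMYND11, with neither mark there. Other starts of these genes were not examined.

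Interferon-induced genes, most of them on 11p, had H3K27ac alone at 5 of 6 promoters, against 58.8% of all terminal ones. IFITM1, a membrane protein that restricts virus entry, had folds of 53.0, 81.2, 30.5, 34.4, 95.5 and 119, and IFITM3, its neighbour, of 49.4, 46, 39.99, 52.9, 54.4 and 71.2. IFITM2, which lies beside them and is close in sequence, had no MACS2 peak in any library and a SEACR peak in 1.

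Among 19 haematopoietic factors and signalling genes, 11 carried H3K27ac alone by MACS2, 2 H3K27me3 alone, 2 both and 4 neither. That share with H3K27ac is near the 58.8% of all terminal promoters. CBFA2T3, a corepressor of the GATA1 and TAL1 complex on 16q, had folds of 82.1, 84.8, 56.7, 68.7, 82.3 and 114. The 2 with both marks were DUSP22 on 6p and MAFK on 7p, each with H3K27me3 in both libraries by both callers. DUSP22 had H3K27ac in 6 libraries by MACS2 and 5 by SEACR, and MAFK in 3 and 2. H3K27me3 alone lay on 2 genes of other blood lineages. IRF4, a lymphoid factor on 6p, had H3K27me3 at 6.23 and 7.04, and ITGB2, the beta chain of leukocyte integrins on 21q, at 8.59 and 8.37, neither with H3K27ac in any library. On 19p, AZU1 carried H3K27ac while PRTN3 and ELANE, the neighbouring neutrophil protease genes, carried neither mark.

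H3K27me3 lay on most of the listed neural genes, a list also chosen with earlier results of these data known. Of 17 receptors, channels and other neural genes, 12 carried H3K27me3 alone and 1 H3K27ac by either caller, against 19.6% of all promoters and 16.1% of terminal ones with H3K27me3 alone by MACS2. CACNA1H, a T-type calcium channel on 16p, had folds of 18.2 and 18.9, and GABRD, a GABA receptor subunit on 1p, 12.5 and 15.1. Neither had an H3K27ac peak in any library. OPRL1, an opioid-related receptor on 20q, was the exception, with H3K27ac in 4 of 6 libraries. DRD4 had H3K27ac in 1 library, and CHL1, CNTN6 and VIPR2 had neither mark by MACS2.

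The listed genes of secreted matrix and coagulation, chosen in that way too, were alike, with H3K27me3 alone at 9 of 11, against the same 19.6 and 16.1%. COL6A1, which encodes a collagen VI chain, had the highest fold, 19.8 and 21.2, and its region chr21:47400955-47426535, 25581 bp wide, was among the 5 highest-ranked H3K27me3 regions of the subtelomeres. Beside it, COL6A2 had 8.26 and 10.3 and COL18A1 3.91 and 5.63. On 13q, F7 and F10, the genes of coagulation factors, had 10.0 and 12.2 and 5.71 and 7.35. On 11p, MUC5AC and MUC2, which encode gel-forming mucins, had 15.8 and 17.8 and 9.84 and 12.3. AGRN, a matrix protein gene on 1p, carried H3K27ac in 5 of 6 libraries.

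Developmental transcription factors were divided. Of 13 in the windows, 4 carried H3K27me3 alone, 3 H3K27ac alone, 1 both and 5 neither, where 16.1, 58.8, 3.14 and 21.9% of all terminal promoters did. On 6p, FOXF2 had H3K27me3 at 10.6 and 13.3 and FOXC1 at 7.82 and 8.999, while FOXQ1 in the same cluster had neither mark. MYT1 on 20q had 9.18 and 11.3 and IRX4 on 5p 6.48 and 7.81. SOX12, SOX18 and HES4 carried H3K27ac.

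The telomere-related genes lay in opposite classes. TERT, the catalytic subunit of telomerase on 5p, had H3K27me3 at 7.70 and 11.5 and no H3K27ac peak at its promoter in any library. RTEL1, a helicase gene on 20q whose product is needed to replicate telomeres, had H3K27ac folds of 35.1, 32.3, 14.5, 31.6, 31.4 and 40.8 and no H3K27me3.

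Clustered gene families of the subtelomeres differed from all of these. None of 14 olfactory receptor and beta-defensin genes carried either mark by MACS2, against 28.6% of all promoters with neither, and DEFB126 was called for H3K27me3 by SEACR. Of 19 listed zinc finger genes, 13 carried H3K27ac alone (58.8% of all terminal promoters did), none H3K27me3 and 6 neither. ZNF595 on 4p stood out with folds of 110, 115, 50.2, 85.2, 102 and 140, and ZNF132, ZNF135, ZNF154 and ZNF329 on 19q had no peak in any library. These families have near-identical copies, and how reads were placed among them was not tested. On 11p, among 9 genes of the imprinted district and its flank, CD151, CTSD, MRPL23, RNH1 and TSPAN4 carried H3K27ac, and LSP1, TNNI2 and TNNT3 carried H3K27me3.

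The widest H3K27ac regions lay mostly over clusters of promoters. The widest SEACR region was chr19:1832007-1886534, 54528 bp over the promoters of REXO1, KLF16 and ABHD17A. Next were chr19:1237020-1280518 (CBARP, ATP5F1D, MIDN, CIRBP and FAM174C), chr17:79858864-79897960 (NPB, PCYT2, SIRT7 and MAFG), chr7:1476651-1512773 (MICALL2) and chr16:88818282-88852974 (PIEZO1). These are stretches of which every base lay in SEACR peaks of at least 2 of the 6 libraries. Each met a SEACR peak in 6 of 6 libraries, but not as 1 unbroken peak, since SEACR called the CBARP promoter in 4 libraries and that of NPB in 3. KLF16 had MACS2 folds of 61.3, 44.8, 17.5, 26.1, 27.2 and 53.5, and PIEZO1 of 72.0, 62.7, 38.5, 75.6, 62.8 and 99.2.

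The H3K27me3 regions were stretches covered by peaks of both libraries. Of the 5 widest H3K27me3 regions, 3 held no coding promoter. The widest by SEACR was chr5:1048334-1106851, 58518 bp overlapping SLC12A7, a potassium chloride cotransporter. Then came chr7:152651-203931 over the promoter of FAM20C, a secretory pathway kinase, chr20:61586897-61635599 at SLC17A9, chr1:1935059-1981336 over the promoters of CFAP74, GABRD and PRKCZ, and chr17:1058808-1102967 at ABR. FAM20C had MACS2 folds of 14.2 and 16.9. In 4 of these 5 regions no H3K27ac peak was listed by either caller. The remaining one, at SLC12A7, had one of 7.67 to 12.5 in all 6 H3K27ac libraries by MACS2.

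A larger share of H3K27ac peaks overlapped H3K27me3 peaks at the ends. Of terminal H3K27ac peaks, 11.1 ± 1.3% overlapped an H3K27me3 peak by MACS2, against 7.24 ± 0.59% in the interiors, a difference of 3.83 ± 0.91 points (6 of 6 libraries, exact sign-flip p = 0.0312). By SEACR it was 14.6 ± 1.9% against 7.03 ± 0.75%, a difference of 7.59 ± 1.35 points (6 of 6, exact p = 0.0312). H3K27me3 coverage itself was 2.88-fold (MACS2) and 2.84-fold (SEACR) higher at the ends, so more overlap is expected there in any case. These p-values therefore do not show that the marks meet more often than their coverage implies. How much of the overlap the coverage accounts for was not tested.

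Both marks were on 3.14% of the 1244 terminal promoters by MACS2, against 2.28% of all promoters, and on 2.49% by SEACR, against 1.44%. By both callers, 26 terminal promoters carried both marks. In alphabetical order the first 10 were APC2, ATP8B3, B3GNTL1, BAIAP3, C1orf159, CDH15, CEP72, DUSP22, EXOC2 and FARP2. FARP2 on 2q had H3K27ac folds of 39.3, 38.2, 53.1, 61.8, 45.3 and 58.4 and H3K27me3 folds of 6.94 and 5.70. GATA5, a GATA factor of heart and gut, had 18.5, 14.9, 8.00, 15.8, 16.7 and 20.1 for H3K27ac and 5.62 and 6.46 for H3K27me3. A library averages over cells and alleles, so a promoter with both marks can be 1 nucleosome stretch, neighbouring stretches or different cells.

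H3K27ac peaks at the ends were found again in the other replicate of the same antibody about as often as elsewhere. Of terminal H3K27ac peaks, 77.2 ± 11.0% by MACS2 and 86.8 ± 10.1% by SEACR overlapped one, against 78.9 and 88.6% in the interiors, differences of -1.73 ± 3.01 and -1.86 ± 3.23 points (n = 6, exact sign-flip p = 0.188 each). Both values of an antibody compare the same pair of lists, so the 6 are not independent and nothing is concluded from this p. H3K27me3 peaks were found again more often at the ends in both libraries, 76.0 against 66.5% and 88.6 against 82.2% by MACS2, and 87.1 against 81.7% and 81.5 against 72.0% by SEACR. No pair of libraries shared more than 0.19% of its peaks with identical ends, so no list repeated another.

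Over 31 of the exact tests given here, the Benjamini-Hochberg adjusted p of those at 0.0312 and 0.0357 was 0.0461. The other exact tests, with alternative windows, peaks, interiors or units, were outside this family and were not adjusted. The peak lists hold no read totals, and the fragment totals that the study states were not used here, so no counting interval is given and a missing peak does not show that a mark is absent.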

How the data were processed

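CUT&Tag peak lists of the 8 benchmark K562 libraries were used (6 H3K27ac, 2 H3K27me3). The 30 other samples of the series were not used here. Per the labels and the study's methods, reads were demultiplexed with bcl2fastq, trimmed with Trim Galore 0.6.6, aligned to hg19 with Bowtie2 2.2.9, and handled with Picard 2.6.0, SAMtools 1.3.1 and bedtools 2.25.0. Peaks were called per library, with MACS2 at q of 1e-05 (narrow for H3K27ac, broad for H3K27me3) and with SEACR at 0.01 (H3K27ac) or 0.1 (H3K27me3).

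The MACS2 lists deposited by the authors give a fold over background, −log10 p and q values, and a score that is 10 times the −log10 q. The SEACR lists deposited by the authors give the total and the maximum coverage signal of each peak, not scaled for depth. MACS2 folds also scale with depth, so folds were compared within a library only. The folds of the 2 marks come from different peak models, narrow and broad, and are not like measures. At chr16:1068562-1082205, a fold of 26.4 went with a maximum SEACR coverage of 659 in CST-9733 replicate 1. In ab4729 replicate 1 a fold of 34.9 went with 47 there. Read totals are not in the lists. The study states fragment totals per library, which were not used here, so no depth or counting interval is given. The Diagenode replicate 2 SEACR list holds no peaks of chromosome X. It lists peaks on every autosome, but whether the list was cut short was not determined.

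Peaks were assigned to the outer 2 Mb of an arm by midpoint, and arms with over 50% unknown bases were skipped. Density is peaks per Mb of known sequence, and coverage is the percent of known bases inside peaks. The library was the unit. Terminal and interior values of each H3K27ac library were compared by flipping the signs of the 6 log2 ratios in every way (an exact permutation test, two-sided), and the marks by exact permutation over 28 arrangements. The call threshold was 0.05. The p-values of 31 exact tests were adjusted by the Benjamini-Hochberg method, and the other exact p-values were not adjusted. Gene starts came from GENCODE 44 on GRCh37, the same build as hg19, and sequences from the GRCh37 genome. Overlap of peaks meant at least 1 base. The regions named were stretches covered by peaks of 1 caller in at least 2 libraries of a mark. The highest-ranked came from MACS2 peaks and the widest from SEACR peaks. The work ran in Python 3.11.15 with scipy 1.17.1, pandas 2.3.3, matplotlib 3.10.9 and numpy 2.4.6, and the interval code was checked against bedtools 2.31.1 on simulated data.

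Members, gene lists and tests were chosen with earlier results of these data known. Genes were named by a rule: members of the lists, promoters at the 5 highest-ranked or widest regions per mark, the first genes by alphabet on the 4 highest and 4 lowest arms, and promoters with both marks. Within the lists, some examples were picked after their values were seen. Alternatives were other window sizes, stricter peaks, other interiors, merged peaks, all annotated genes, leaving out chromosome 19 or the last 100 kb, antibody means, a replicate block and leaving out each library. Some genes and sequences of these windows are not reported here.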

Additional observations from a re-analysis of the deposited data

Results flagged for a closer look

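The share of promoters with a peak moved in opposite directions for the 2 marks toward chromosome ends. It was higher at the ends in 6 of 6 H3K27ac libraries and lower in 2 of 2 H3K27me3 libraries, a difference between marks of 11.7 percentage points by MACS2 and 12.02 by SEACR (exact permutation over 28 arrangements, p = 0.0357 each, the smallest possible). The log2 ratio of peaks per Mb was higher for H3K27ac by 0.85 (MACS2) and 0.64 (SEACR), with the same exact permutation p of 0.0357. Both patterns turned in some settings. With MACS2 peaks of q at most 1e-10 the density ratio was 1.55 for H3K27ac and 3.03 for H3K27me3, and the H3K27me3 promoter share was 3.08 points higher at the ends. It was also higher with windows of 5 Mb (2.63 by MACS2 and 2.81 by SEACR) and with all annotated genes (5.94 and 6.08). The marks also differ in antibody, number of libraries and peak model, which cannot be told apart from the mark here. No library stood apart from its group in any of the 12 H3K27ac results examined for that.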

How the results depend on the processing

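Peak lists limit these values: they hold no depth, each mark has its own threshold, and the H3K27me3 values rest on 2 libraries of 1 antibody. Log2 values are given as MACS2 then SEACR unless a caller is named. With windows of 1 Mb, H3K27me3 density was 0.66 and 0.75, its coverage 1.33 and 1.31, its promoter difference -5.70 and -4.43 points, the H3K27ac p over q ratio 0.089 and 0.12, and the difference of marks in coverage 0.43 and 0.49. With 5 Mb these were 0.93 and 1.03, 1.63 and 1.61, 2.63 and 2.81 points, -0.021 and 0.0019, and -0.42 and -0.32. With MACS2 q at most 1e-10, H3K27me3 density was 3.03, its coverage 3.08, its promoter difference 3.08 points, H3K27ac width 0.032 and the difference of marks -1.46. With SEACR peaks in the upper part by total signal (above the median), H3K27me3 density was 1.17, its coverage 1.68, its promoter difference -0.838 points and H3K27ac p over q -0.075. Without the last 100 kb, H3K27ac SEACR peaks per start were 0.18. Against interiors within 10 Mb of the end, H3K27me3 density was 0.10 and 0.12, its coverage 0.46 and 0.46, its promoter difference -8.30 and -7.54 points, H3K27ac MACS2 width -0.066 and the difference of marks 0.70 and 0.75. Without chromosome 19, H3K27me3 density was 0.83 and 0.93, its coverage 1.603 and 1.58, its promoter difference -1.25 and -0.704 points and H3K27ac MACS2 width -0.068. Merging peaks within 1000 bp gave an H3K27ac MACS2 width of 0.041 and an H3K27me3 SEACR density of 0.73. With all annotated genes the H3K27me3 promoter difference was 5.94 and 6.08 points. The cause of these changes was not tested.

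With interior windows of like coding starts, H3K27me3 coverage was 0.81 and 0.80. With windows of like GC it was 0.11 and 0.12, and H3K27ac coverage 0.026 and 0.031. Both were added after the data were seen. With 1 mean per H3K27ac antibody, the sign-flip test cannot go below an exact p of 0.25, and every p was 0.25: density 1.602 and 1.49, coverage 1.64 and 1.73, peaks per start 0.34 and 0.22, promoter difference 8.72 and 9.64 points, p over q -0.16 and -0.15, and SEACR width 0.17. Leaving out 1 library at a time, where 5 libraries cannot go below an exact p of 0.0625, H3K27ac density ran from 1.55 to 1.65 and 1.46 to 1.53, coverage from 1.57 to 1.69 and 1.65 to 1.78, peaks per start from 0.28 to 0.39 and 0.19 to 0.26, promoter difference from 8.17 to 9.15 and 8.77 to 10.3 points, width from -0.05 to -0.02 and 0.14 to 0.19, and p over q from -0.17 to -0.14 and -0.16 to -0.13. H3K27me3 density ran from 0.71 to 0.80 and 0.80 to 0.90, coverage from 1.49 to 1.56 and 1.46 to 1.55, promoter difference from -3.36 to -2.64 and -2.51 to -2.25, and the difference of marks from 0.05 to 0.17 and 0.15 to 0.28. Arms above the interiors numbered 29 and 28 to 29 for H3K27ac, and 31 and 31 for H3K27me3. With the replicate number as a block, the difference of marks was again 0.12 and 0.22 (exact permutation p = 0.812 and 0.375). The numbers did not pair all libraries. Over 1338 windows, replicate deviations correlated at 0.531 between ab4729 and Diagenode, and at -0.164 to -0.013 between the other pairs of antibodies.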

Other observations

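Of the 5 highest-ranked H3K27me3 regions, 1 lay on 16p (chr16:1068562-1082205, 13644 bp, no coding promoter). It had H3K27me3 folds of 26.4 and 31.6 and was also called for H3K27ac by MACS2 in all 6 libraries, with folds of 14.9 and 20.3 (ab177178), 34.9 and 15.1 (ab4729), and 11.9 and 10.3 (Diagenode). SEACR listed H3K27ac there in ab4729 replicate 1 only. Of its 31-base words, 6.001% occur elsewhere in the genome.

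Among the promoters with both marks, SPATC1L on 21q had the H3K27ac folds 98.2, 93.8, 80.0, 107, 76.7 and 85.2 and the H3K27me3 folds 4.84 and 6.43. On 1q, where 49 of 59 coding genes carried neither mark by MACS2, 8 carried H3K27ac alone and 2 H3K27me3 alone, while on 3q 25 of 26 carried H3K27ac alone. Of all autosomal promoters, 28.6% carried neither mark, 49.6% H3K27ac alone and 19.6% H3K27me3 alone. The terminal windows of 1q and 3q were not above the interiors in H3K27me3 in both libraries.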
